A study of Mus musculus with 468 samples.

Results

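The comparison set adipose libraries rich in transcripts of Upk3b, a gene of the mesothelium, against libraries poor in them. Upk3b counts divided by the library total and scaled to a total of 1000000 gave CPM, and libraries were chosen by this measured value, as the highest and the lowest 25%, separately among those with no count of Ddx3y, an RNA helicase gene of the Y chromosome, and those with such counts. These sets are called the Ddx3y-negative stratum, with 48.5% of the libraries of the series, and the Ddx3y-positive stratum, with 51.5%. The members made up 49.6% of all libraries and were 56 high and 56 low ones in the Ddx3y-negative stratum, and 60 high and 60 low ones in the Ddx3y-positive stratum. The libraries between these groups are called the middle libraries, and they took no part in the comparison of high with low.

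The animals were Diversity Outbred mice, in which the genomes of several inbred founder strains are shuffled so that nearly every animal has its own genotype. All animals, members and middle libraries alike, ate a high-fat, high-sugar diet labelled as 45 percent fat, and per the methods of the study the tissue whose RNA was sequenced was the gonadal fat pad of adult mice. Each library came from 1 mouse, so the spread between libraries is that between mice plus the error of the assay. The labels give no sex, generation or batch, and high and low libraries were set apart by a measured value, not by a treatment. Xist, the RNA that silences an X chromosome, was above 100 CPM in all but 2 of the Ddx3y-negative libraries (median 555.3 CPM) and at most 10.3 CPM in the Ddx3y-positive ones. Adipoq, the adipocyte hormone adiponectin, reached at least 499.6 CPM in every member library.

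Mesothelium is a single sheet of flat epithelial cells of mesodermal origin that covers the organs and fat pads of the body cavities. Its cells carry keratins together with mesodermal transcription factors such as WT1, and they secrete a lubricating fluid. Gonadal fat is wrapped in this layer, and a whole fat pad therefore contains its RNA. Upk3b encodes uroplakin 3B, a membrane protein first described in bladder epithelium and also made by mesothelial cells. In bulk tissue, more mesothelial cells and more RNA per mesothelial cell cannot be told apart.

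Upk3b itself (ENSMUSG00000042985, chromosome 5, 136038496 to 136046487, GRCm38) chose the groups, so its values are a description. It ranged from 20.9 to 331.2 CPM of the library total in the Ddx3y-negative stratum (median 96.8 CPM) and from 14.9 to 278.5 CPM in the Ddx3y-positive stratum (median 69.5 CPM). In the Ddx3y-negative stratum the lowest high library had 127.7 CPM and the highest middle library 125.96 CPM, whereas the highest low library had 69.4 CPM and the lowest middle library 69.7 CPM. In the Ddx3y-positive stratum the corresponding borders lay between 93.3 and 93.2 CPM and between 49.7 and 51.02 CPM. The groups were thus cut from a continuous range. The smallest Upk3b count in any library was 1085.

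Other properties of the libraries moved with the groups in the Ddx3y-negative stratum. Total expected counts, 35.3 M to 137.8 M over all libraries (median 82.04 M, with M for 1000000 counts), did not differ detectably between high and low libraries in either stratum (adjusted p = 0.888 and 0.634, permutation test with 100000 resamples, two-sided). The share of counts from genes of the mitochondrial genome had a median of 6.59% in Ddx3y-negative high libraries and 11.9% in low ones (adjusted p = 6e-05, permutation test, whose unadjusted p is the smallest the resamples can give). The TMM factor of edgeR, which rescales a library total for its composition, was 1.03 ± 0.0644 against 0.862 ± 0.101 (SD, adjusted p = 6e-05, permutation test). Among Ddx3y-positive libraries the mitochondrial share was 4.48% against 5.04% (adjusted p = 0.0741, permutation test), and the TMM factors were 1.06 ± 0.0602 and 1.05 ± 0.0919 (adjusted p = 0.839, permutation test). The share of counts annotated as ribosomal RNA had medians of 1.48% in high and 1.85% in low Ddx3y-negative libraries (adjusted p = 0.0137, permutation test) and of 1.64% and 2.30% in Ddx3y-positive ones (adjusted p = 0.0840, permutation test). Because Upk3b was ranked by its share of the total, values with groups ranked by TMM-scaled Upk3b are given beside results below. Such groups held 91.1% of the high and 85.7% of the low Ddx3y-negative libraries, and 90% and 95% of the Ddx3y-positive ones.

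From here on, CPM values are scaled by the TMM factor, and a fold change is log2 of high over low. High and low libraries differed over much of the transcriptome. Among 18378 genes tested with the quasi-likelihood test of edgeR (Benjamini-Hochberg adjusted p below 0.05), 4593 (25%) were higher and 5051 (27.5%) lower in the high libraries of the Ddx3y-negative stratum. In the Ddx3y-positive stratum 2610 (14.2%) were higher and 3473 (18.9%) lower. With library totals in place of TMM, the share of higher genes among those called went from 47.6% to 90.7% in the Ddx3y-negative stratum, where the median of all genes moved by 0.26, and from 42.9% to 49% in the Ddx3y-positive stratum. Of 3393 genes called in both strata, 1080 (5.88% of genes tested) were higher in both, 1268 (6.90%) were lower in both, and 1045 went opposite ways. The genes called in the same direction made up 24.3% of the calls of the Ddx3y-negative stratum and 38.6% of those of the Ddx3y-positive stratum. With groups ranked by TMM-scaled Upk3b, 15.7% were higher and 24.6% lower in the Ddx3y-negative stratum, and 16.8% and 21.7% in the Ddx3y-positive stratum. All counts of gene lists below are read against these percentages.

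Membrane and secreted proteins of mesothelial cells were higher in high libraries throughout. All 11 genes of this list that were tested passed in both strata, with median log2 fold changes of 1.20 and 1.25, beside 0.00 and -0.01 over all genes. Msln (ENSMUSG00000063011, chromosome 17, 25748613 to 25754378), the cell surface protein mesothelin, had a lowest, median and highest value of 25.2, 47.8 and 111.7 CPM in Ddx3y-negative high libraries and 7.88, 20.9 and 38.9 CPM in low ones. For Ddx3y-positive libraries it had 29.2, 48.9 and 126.5 CPM and 6.22, 17.6 and 33.3 CPM. The groups overlapped at their edges, and 55 of 60 Ddx3y-positive high libraries lay above every low one, as did 45 of 56 Ddx3y-negative ones. Msln was 2.39-fold higher in the first stratum, a log2 fold change of 1.26 ± 0.086 (SE, adjusted p = 3.2e-25), and 2.98-fold higher in the second, at 1.57 ± 0.083 (SE, adjusted p = 1.3e-34). Muc16, the mucin CA125 to which mesothelin binds, ranged from 19.7 to 137.7 CPM (median 51.9) in Ddx3y-negative high libraries and from 6.24 to 48.2 CPM (median 19.3) in low ones. Its log2 fold change was 1.42 ± 0.11 (SE, adjusted p = 6.8e-22) there and 1.60 ± 0.091 (SE, adjusted p = 1.4e-31) in the Ddx3y-positive stratum, where the medians were 34.8 against 11.7 CPM.

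**Figure D1:**
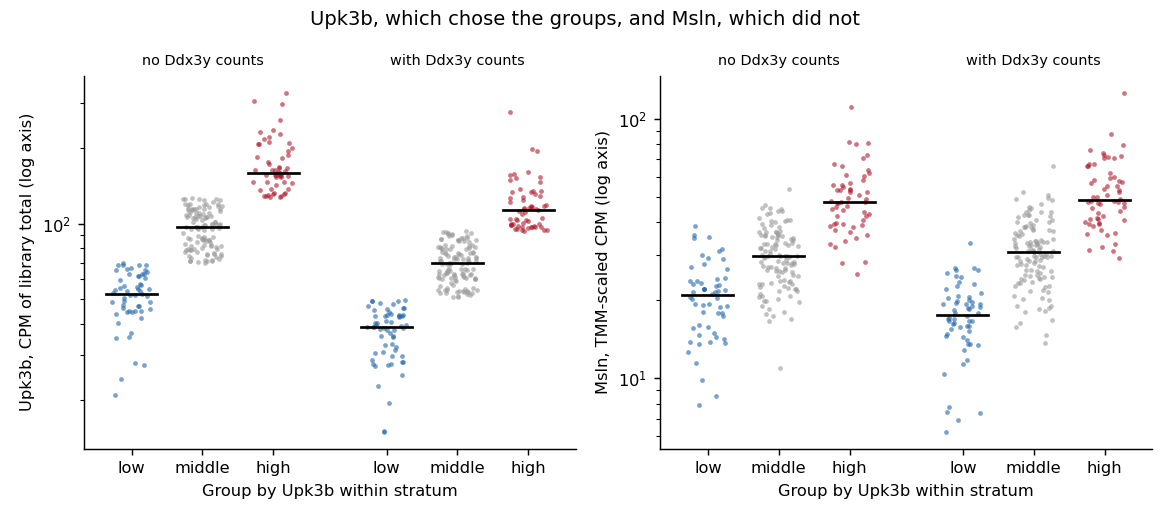
Each point is 1 library, the horizontal lines are medians, and both vertical axes are logarithmic. The left panel shows Upk3b as CPM of the library total, the value that set the groups, and the right panel Msln as TMM-scaled CPM, with Ddx3y-negative libraries on the left of each panel. Msln medians were 20.9, 29.5 and 47.8 CPM in low, middle and high Ddx3y-negative libraries and 17.6, 30.8 and 48.9 CPM in the Ddx3y-positive ones.

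Nkain4, which encodes a protein that binds the sodium pump, separated the Ddx3y-positive groups best among the listed surface genes. Its lowest, median and highest values were 8.47, 12.9 and 25.1 CPM in Ddx3y-positive high libraries and 2.44, 5.01 and 7.24 CPM in low ones, so that all 60 high libraries lay above all 60 low ones. Among Ddx3y-negative libraries they were 10.996, 16.9 and 35.7 CPM and 3.12, 6.95 and 13.6 CPM. There 51 of 56 high libraries lay above every low one, and 53 of 56 for Rspo1, a secreted amplifier of Wnt signalling. The log2 fold changes of Nkain4 were 1.38 ± 0.078 (SE, adjusted p = 3.7e-31) and 1.47 ± 0.064 (SE, adjusted p = 2.9e-41). Upk1b, a tetraspanin partner of the uroplakins, had medians of 24.5 against 10.5 CPM and 17.3 against 6.31 CPM in the strata. Its log2 fold change of 1.25 in the Ddx3y-positive stratum was 1.52 without 71 libraries of the series, called rich in other tissues below. These lay above the 98th percentile of the summed CPM of any marker list of another tissue, a relative cut and not a set level. Wherever they are left out, the highest and lowest 25% by Upk3b were chosen anew among the remaining libraries of each stratum. Gpm6a, a membrane glycoprotein gene first known from neurons, had log2 fold changes of 1.23 and 1.46 (adjusted p = 7.6e-28 and 8.9e-33).

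Some surface genes differed more in 1 stratum than in the other, tested as an interaction, the Ddx3y-positive minus the Ddx3y-negative log2 fold change. Lrrn4, a leucine-rich repeat protein gene, went from a median of 25.8 CPM in low to 56.4 CPM in high Ddx3y-negative libraries, and from 15.7 to 47.3 CPM in Ddx3y-positive ones, an interaction of 0.43 ± 0.11 (SE, adjusted p = 4.1e-04) that was 0.16 with library totals in place of TMM (adjusted p = 0.18). Ildr2, an immunoglobulin-like membrane protein gene, differed less in the Ddx3y-positive stratum, with medians of 66.2 against 30.4 CPM and 57.2 against 38.01 CPM and an interaction of -0.52 ± 0.094 (SE, adjusted p = 1.5e-06). Pdpn (podoplanin) and Rspo1 also had smaller differences there, with interactions of -0.39 ± 0.11 (SE, adjusted p = 0.0029) and -0.27 ± 0.094 (SE, adjusted p = 0.012). Msln went the other way, at 0.31 ± 0.12 (SE, adjusted p = 0.021). The smallest differences of the list belonged to Bcam, a laminin receptor gene, at 0.36 and 0.49. Slpi, a secreted protease inhibitor gene, scattered most, with 0.711 to 35.9 CPM among Ddx3y-negative low libraries alone, and passed the test at 0.81 ± 0.22 (SE, adjusted p = 7.9e-04) and 0.58 ± 0.18 (SE, adjusted p = 0.010). Calb2 (calretinin), another protein of mesothelial cells, was not analysed here.

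Transcription factors of the mesothelium and its mesodermal precursors followed Upk3b as well. All 7 of the list were higher in Ddx3y-negative high libraries and 6 of 7 in Ddx3y-positive ones. Bnc1 (ENSMUSG00000025105, chromosome 7, 81966653 to 81992307), which encodes the zinc finger protein basonuclin 1, had a lowest, median and highest value of 8.56, 13.5 and 38.2 CPM in Ddx3y-positive high libraries and 1.92, 4.67 and 11.1 CPM in low ones. Ddx3y-negative libraries had 11.4, 19.6 and 37.7 CPM and 4.14, 8.29 and 15.7 CPM. Nearly all high libraries exceeded nearly all low ones, and the log2 fold changes were 1.25 ± 0.072 (SE, adjusted p = 2.2e-30) and 1.61 ± 0.078 (SE, adjusted p = 9.5e-38). Gata5, a factor of cardiac and mesothelial development, had log2 fold changes of 1.32 ± 0.10 (SE, adjusted p = 2.9e-21) and 1.48 ± 0.098 (SE, adjusted p = 2.1e-26). Wt1 (ENSMUSG00000016458, chromosome 2, 105126529 to 105173616) separated the Ddx3y-negative groups almost fully, at 23.4, 37.5 and 61.9 CPM against 7.05, 16.2 and 24.2 CPM, with 55 of 56 high libraries above every low one. Ddx3y-positive libraries had 12.5, 18.3 and 29.2 CPM against 7.15, 11.99 and 19.4 CPM, with 25 of 60. Its log2 fold change was 1.22 in the first and 0.71 in the second, an interaction of -0.51 ± 0.085 (SE, adjusted p = 1.8e-07), and with groups ranked by TMM-scaled Upk3b the interaction was -0.39 (adjusted p = 7.0e-04). For Bnc1 the interaction had the other sign, at 0.36 ± 0.11 (SE, adjusted p = 0.0028). With library totals in place of TMM the interactions were -0.77 for Wt1, 0.11 for Bnc1 (adjusted p = 0.38) and 0.08 for Msln (adjusted p = 0.58).

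The remaining factors differed less. Gata6 was higher by 0.30 and 0.42 on the log2 scale, and Tbx18, a T-box gene of the septum transversum and epicardium, by 0.14 and 0.40 (adjusted p = 0.038 and 1.5e-06). Tcf21, a factor of stromal progenitors as well as mesothelium, was higher in the Ddx3y-negative stratum at 0.67 ± 0.12 (SE, adjusted p = 4.8e-07). Among Ddx3y-positive libraries its value was 0.06 ± 0.088 (SE, adjusted p = 0.66), and the interaction was -0.61 ± 0.15 (SE, adjusted p = 2.1e-04). Gata4 had low levels, with medians of 0.675 against 0.497 CPM and 0.422 against 0.284 CPM. Its call in the Ddx3y-negative stratum, 0.43 ± 0.14 (SE, adjusted p = 0.0063), turned to -2.14 when the groups were ranked by TMM-scaled Upk3b.

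**Figure D2:**
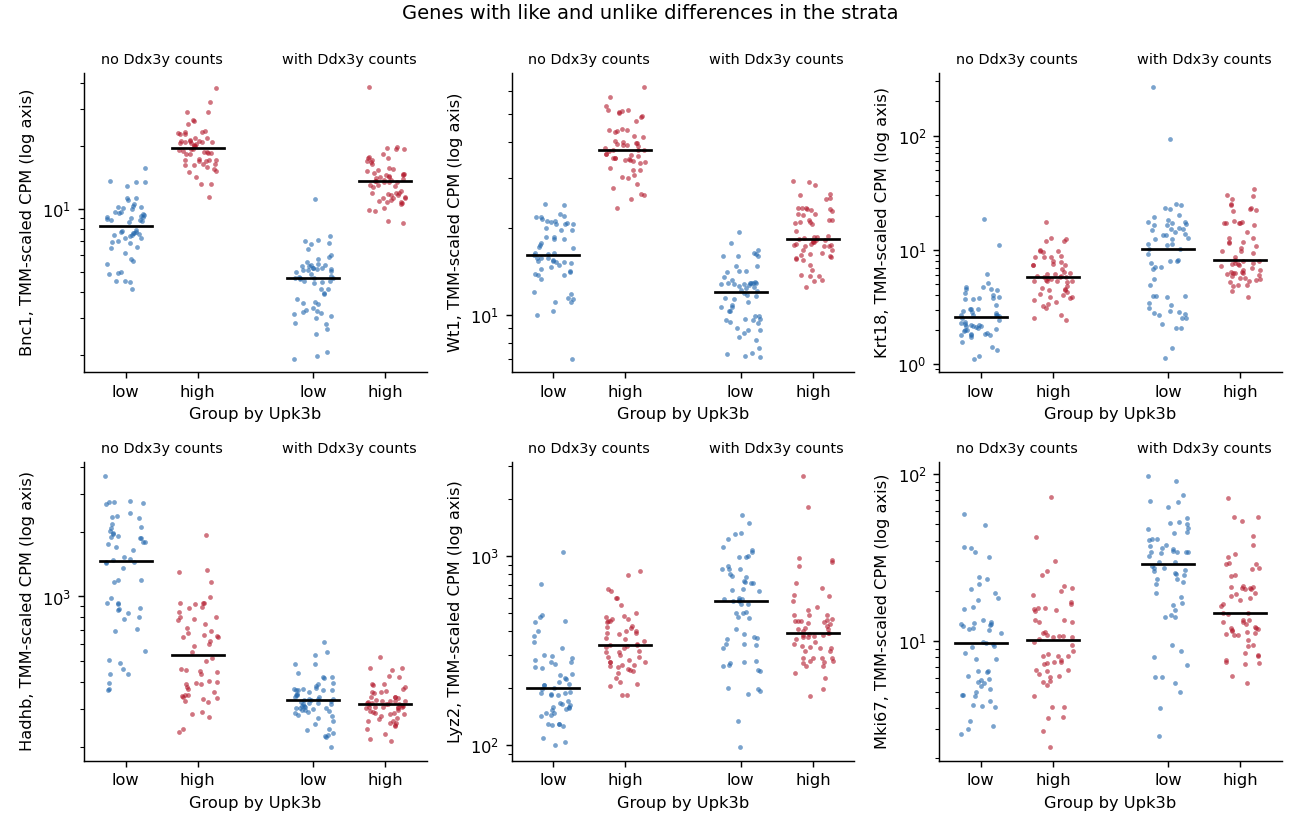
Each point is 1 library of the low or high group, the horizontal lines are medians, and the vertical axes show TMM-scaled CPM on a logarithmic scale. Bnc1 and Wt1 were higher in high libraries of both strata, Krt18 and Lyz2 passed the test as higher only in Ddx3y-negative ones (interaction -1.41 and -0.94), Hadhb was lower in Ddx3y-negative high libraries, and Mki67 lower in Ddx3y-positive ones.

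Keratins and other epithelial genes split by stratum. In the Ddx3y-negative stratum 7 of 10 epithelial genes were higher and none lower, and in the Ddx3y-positive stratum 5 were higher and 1 lower, or 4 and 3 with groups ranked by TMM-scaled Upk3b. Krt7 and Krt19, keratins of simple epithelia, were higher in both, at 1.11 and 1.40 for Krt7 and 1.18 and 0.86 for Krt19. Krt8 and Krt18, which pair into the filaments of simple epithelia, behaved otherwise. In Ddx3y-negative libraries Krt18 had 2.45, 5.79 and 17.5 CPM in the high and 1.12, 2.60 and 18.7 CPM in the low group, and passed at 1.01 ± 0.14 (SE, adjusted p = 2.5e-10). In Ddx3y-positive libraries it had 3.84, 8.11 and 33.9 CPM in the high and 1.12, 10.2 and 266.6 CPM in the low group, at -0.39 ± 0.23 (SE, adjusted p = 0.19). The low Ddx3y-positive libraries thus covered the whole range of the high ones and went beyond it at both ends. Krt8 had 1.07 ± 0.13 (SE, adjusted p = 6.0e-12) and -0.03 ± 0.20 (SE, adjusted p = 0.93), and the interactions of both genes passed, at -1.10 ± 0.24 (SE, adjusted p = 7.5e-05) for Krt8 and -1.41 ± 0.28 (SE, adjusted p = 1.0e-05) for Krt18.

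Another list of epithelial transcripts had a lower median of its summed level in Ddx3y-positive high than in low libraries. How that level varied with these keratins from library to library was not tested. The summed CPM of 10 genes of oviduct and uterus, 7 of them tested and none called in the Ddx3y-positive stratum, had a median of 12.1 CPM (4.08 to 117.5) in Ddx3y-positive high libraries and 40.6 CPM (2.69 to 272.9) in low ones. Medians in the Ddx3y-negative stratum were 5.37 and 4.24 CPM. The list is named after oviduct and uterus, but its medians were higher in the stratum with transcripts of the Y chromosome. The name thus does not give the source of these transcripts there, which was not tested. Epcam, an adhesion molecule of many epithelia that belongs to that list, had medians of 2.36 against 10.4 CPM in the Ddx3y-positive stratum. With the summed list as a covariate, Krt8 and Krt18 had log2 fold changes of 0.63 and 0.49 in the Ddx3y-positive stratum (adjusted p = 9.8e-09 and 3.2e-04), a covariate added after the data were seen. Desmoplakin (Dsp) was the 1 epithelial gene that was lower in Ddx3y-positive high libraries, at -0.75 ± 0.26 (SE, adjusted p = 0.019), with medians of 8.03 against 18.3 CPM. E-cadherin (Cdh1) passed in neither stratum, at 0.18 and -0.68, while P-cadherin (Cdh3) passed in the Ddx3y-negative one at 0.97 ± 0.18 (SE, adjusted p = 2.9e-06). Ezrin (Ezr), the membrane-cytoskeleton linker of microvilli, passed at 0.90 and 0.30, and the claudin gene Cldn15 at 0.38 and 0.32. Cxadr, a junction protein gene, passed in the Ddx3y-positive stratum at 0.67 ± 0.086 (SE, adjusted p = 6.4e-10) and had 0.12 ± 0.10 (SE, adjusted p = 0.33) in the other.

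Genes of retinoic acid synthesis and response, a pathway active in visceral mesothelium, were less uniform. Of 12 tested, 7 were higher and 1 lower in the Ddx3y-negative stratum, and 3 were higher and 1 lower in the Ddx3y-positive stratum. With groups ranked by TMM-scaled Upk3b, 4 were higher and 1 lower in the first stratum and 4 and 2 in the second. Aldh1a2, the dehydrogenase that makes retinoic acid in embryonic mesothelium, had 5.53, 13.6 and 24.7 CPM in Ddx3y-negative high and 2.19, 6.61 and 14.2 CPM in low libraries. Medians in the Ddx3y-positive stratum were 11.7 against 9.34 CPM. Its log2 fold changes of 1.03 ± 0.089 (SE, adjusted p = 1.4e-18) and 0.33 ± 0.091 (SE, adjusted p = 0.0027) gave an interaction of -0.69 ± 0.13 (SE, adjusted p = 1.9e-06). Aldh1a1 and the chemerin gene Rarres2 passed in both strata, at 0.57 and 0.29 and at 0.43 and 0.23. With the log2 mitochondrial share as a covariate, added after the data were seen, they had 0.14 and -0.07 in the Ddx3y-negative stratum and did not pass (adjusted p = 0.25 and 0.65). The retinoic acid receptor gene Rarb was lower in Ddx3y-negative high libraries, at -0.57 ± 0.075 (SE, adjusted p = 1.1e-10), and Aldh1a3 was lower in Ddx3y-positive ones, at -0.55 ± 0.11 (SE, adjusted p = 6.5e-05). Stra6, the retinol uptake receptor, had the largest fold change of the list in the Ddx3y-negative stratum, 2.05 ± 0.24 (SE, adjusted p = 4.8e-13), at medians of only 0.283 against 0.0782 CPM, and ranking by TMM-scaled Upk3b left 0.33 (adjusted p = 0.44). The other retinoid genes (Rdh10, Rbp4, Dhrs3, Cyp26a1 and Cyp26b1) had log2 fold changes from -0.04 to 0.52 and from -0.03 to 0.19.

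**Figure D3:**
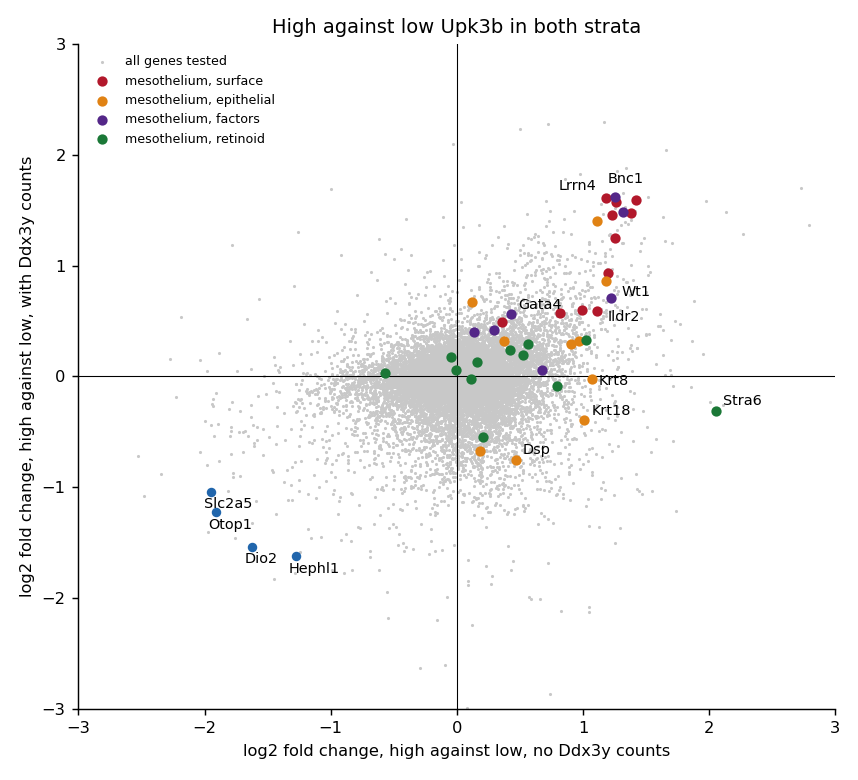
Each grey point is a gene, placed by its log2 fold change of high against low libraries in the Ddx3y-negative (horizontal) and Ddx3y-positive (vertical) stratum, and 11 genes lie beyond the axes. Colours mark the mesothelium lists, and blue points 4 genes that were lower in both strata. Surface genes reach the upper right, whereas Stra6, Krt8 and Krt18 lie to the right at vertical values of -0.31, -0.03 and -0.39.

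Over all libraries of a stratum, genes were ranked by Spearman's rho of their TMM-scaled CPM with Upk3b CPM of the library total. As a description over the libraries of each stratum, which share the library total as a divisor, the closest was Tmem151a, a transmembrane protein gene, with a rho of 0.906 and 0.887. It was followed by Nkain4 (0.859 and 0.912), Bnc1 (0.868 and 0.899), Myrf (0.898 and 0.869), Gpm6a, Lrrn4, Crb2, Pkhd1l1, Msln and Wnt2b, the last at 0.799 and 0.847. With TMM-scaled Upk3b, Tmem151a had 0.919 and 0.895, and Msln went from 0.792 and 0.865 to 0.771 and 0.899. Upk3b CPM of the library total had a rho with the TMM factor of 0.626 in the Ddx3y-negative and 3.4e-04 in the Ddx3y-positive stratum. Myrf encodes a membrane-bound transcription factor best known from myelinating cells, and Crb2 a protein of apical cell polarity. In Ddx3y-negative libraries Tmem151a had 7.10, 10.8 and 18.3 CPM in the high and 2.05, 4.24 and 7.08 CPM in the low group, without overlap. Myrf had 26.8, 37.6 and 85.1 CPM in Ddx3y-positive high and 8.72, 17.1 and 26.3 CPM in low libraries, again without overlap. Log2 fold changes were 1.41 and 1.49 for Tmem151a, 1.32 and 1.21 for Myrf, and 1.33 and 1.39 for Crb2.

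Because these genes moved together, the promoters of Upk3b and of 3 of the closest genes are shown as RefSeq gives them, in windows of 300 bases across the start of transcription (GRCm38.p6). Promoter entries were found for 7 of the 13 genes that were among the closest or the highest in both strata. Capitals mark a match to GGAATG (a TEAD motif) or GCGGGGGCG (a WT1 motif) on either strand, and the letters AGATAA, of the GATA factors, were searched as well.
Upk3b, chr5:136038246-136038545, plus strand: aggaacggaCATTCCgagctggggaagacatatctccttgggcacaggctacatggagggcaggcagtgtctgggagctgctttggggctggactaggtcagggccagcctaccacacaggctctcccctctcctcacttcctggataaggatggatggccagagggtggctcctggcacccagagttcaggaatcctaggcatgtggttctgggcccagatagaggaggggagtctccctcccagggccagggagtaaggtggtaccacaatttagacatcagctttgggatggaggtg
Tmem151a, chr19:5085442-5085741, minus strand: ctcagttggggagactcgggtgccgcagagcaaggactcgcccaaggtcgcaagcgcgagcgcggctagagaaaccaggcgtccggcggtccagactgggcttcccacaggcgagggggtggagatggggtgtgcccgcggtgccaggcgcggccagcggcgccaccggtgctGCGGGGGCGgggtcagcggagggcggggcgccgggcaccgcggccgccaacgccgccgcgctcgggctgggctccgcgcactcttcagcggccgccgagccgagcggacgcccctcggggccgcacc
Bnc1, chr7:81992250-81992549, minus strand: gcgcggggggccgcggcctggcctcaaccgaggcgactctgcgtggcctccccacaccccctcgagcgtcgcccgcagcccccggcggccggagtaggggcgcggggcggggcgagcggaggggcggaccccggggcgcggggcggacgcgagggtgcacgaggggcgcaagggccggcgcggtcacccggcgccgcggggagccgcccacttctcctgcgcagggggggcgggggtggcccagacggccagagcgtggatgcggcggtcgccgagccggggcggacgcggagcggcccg
Lrrn4, chr2:132880813-132881112, minus strand: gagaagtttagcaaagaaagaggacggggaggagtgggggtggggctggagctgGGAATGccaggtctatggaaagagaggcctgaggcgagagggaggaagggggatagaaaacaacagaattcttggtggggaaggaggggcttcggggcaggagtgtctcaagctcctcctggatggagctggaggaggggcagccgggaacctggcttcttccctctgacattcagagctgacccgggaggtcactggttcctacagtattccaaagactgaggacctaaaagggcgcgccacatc

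The Upk3b window holds the TEAD letters on the minus strand and the Lrrn4 window holds them on the plus strand. Tmem151a has the WT1 letters 77 bases before its start, and the Bnc1 window has no match. Over 27025 promoters of the same length, 14.6% hold the TEAD letters, 2.92% the WT1 letters and 11.4% the GATA letters. Among the 7 matched genes, TEAD letters were in 2 (Gpm6a and Lrrn4), WT1 letters in 1 and GATA letters in 0. The 4 windows differ in composition, with 58.7% G and C and 2 CpG in Upk3b, 77.3% and 43 CpG in Tmem151a, 83.3% and 50 CpG in Bnc1, and 58% and 7 CpG in Lrrn4, beside medians of 52.7% and 7 CpG over all promoters.

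By a rule that ranked genes that averaged 5 CPM or more on the smaller of their 2 fold changes, 12 genes led those higher in both strata. Beside Msln, Muc16, Nkain4, Bnc1, Upk1b, Gpm6a, Lrrn4, Tmem151a and Myrf, they included Pkhd1l1 and Wnt2b. Pkhd1l1, which encodes the large membrane protein fibrocystin-L, had 42.9, 68.3 and 158.8 CPM in Ddx3y-negative high and 7.65, 24.6 and 44.5 CPM in low libraries, where 55 of 56 high ones exceeded every low one. Its log2 fold changes were 1.64 ± 0.089 (SE, adjusted p = 3.3e-32) and 1.44 ± 0.086 (SE, adjusted p = 5.9e-30). Wnt2b, a secreted Wnt ligand, had medians of 44.3 against 17.7 CPM and 18.3 against 6.59 CPM, at 1.34 ± 0.089 (SE, adjusted p = 9.8e-26) and 1.53 ± 0.084 (SE, adjusted p = 8.9e-33). The interaction did not pass for Pkhd1l1 and Wnt2b (adjusted p = 0.19 and 0.20), but with library totals that of Pkhd1l1 was -0.45 and passed (adjusted p = 7.4e-04).

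Genes lower in both strata included several of brown-fat type heat production and lipid handling, and their groups overlapped. Dio2, the deiodinase that activates thyroid hormone, had 0.211, 4.81 and 54.5 CPM in Ddx3y-negative high and 0.549, 14.7 and 164.2 CPM in low libraries. Ddx3y-positive libraries had 0.0991, 0.833 and 3.52 CPM and 0.271, 1.82 and 15.4 CPM. It was lower at -1.62 ± 0.31 (SE, adjusted p = 4.3e-06) and -1.54 ± 0.22 (SE, adjusted p = 1.2e-08). Otop1, a proton channel gene active in brown fat, had medians of 19.9 against 98.2 CPM and 5.95 against 15.03 CPM and log2 fold changes of -1.91 ± 0.24 (SE, adjusted p = 3.9e-11) and -1.23 ± 0.23 (SE, adjusted p = 1.5e-05). Hephl1, a copper-dependent oxidase gene, was lower, at -1.28 and -1.62, the fructose transporter gene Slc2a5 at -1.94 and -1.04, and Angptl8, an insulin-responsive inhibitor of lipoprotein lipase, at -0.94 and -1.24. Slc2a5 had -0.65 (adjusted p = 0.091) in the Ddx3y-positive stratum when groups were ranked by TMM-scaled Upk3b. Ncan, Tmem56 and the transferrin receptor gene Tfr2 were lower, at -1.18 and -1.38, -1.12 and -1.09, and -0.99 and -1.75. Itgad, an integrin gene of macrophages, and Mmp12, the macrophage elastase, passed at -1.16 and -1.46 and at -1.25 and -0.94, with Ddx3y-negative medians of 0.285 against 0.206 CPM and 2.66 against 2.28 CPM, in which the high group was not the lower one. With the mitochondrial share as a covariate, Dio2, Tmem56 and Slc2a5 had 0.35, -0.30 and 0.45 in the Ddx3y-negative stratum and did not pass (adjusted p = 0.26, 0.18 and 0.17).

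A few libraries weighed on a pair of genes on that list. Ceacam10, a gene of male accessory glands, had medians of 0.0531 against 0.0568 CPM and 0.286 against 0.313 CPM, and 1 Ddx3y-positive low library held 17070.4 CPM while the next held 77.6 CPM. Without libraries rich in other tissues its log2 fold changes of -2.24 and -4.39 became 0.05 and 0.09. Lars2, a mitochondrial leucyl-tRNA synthetase gene, was lower at -1.31 and -1.11. In the Ddx3y-negative stratum its medians were 1551 against 3174 CPM, and 48 of 56 high libraries lay below the median of the low ones. With counts capped at the 99th percentile it had -0.92 there (adjusted p = 7.2e-07) and -0.22 in the Ddx3y-positive stratum (adjusted p = 0.30), where the value was -0.07 (adjusted p = 0.75) with groups ranked by TMM-scaled Upk3b. Lars2 followed the share of counts annotated as ribosomal RNA, with a rho of 0.827 in the Ddx3y-negative and 0.891 in the Ddx3y-positive stratum as a description over their libraries. That share reached 28.4% in 1 Ddx3y-positive low library, which held 120406 CPM of Lars2 beside at most 8910.3 CPM in the other low ones. The part of ribosomal RNA in the Lars2 difference was not tested.

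The middle libraries, which belong to neither group, gave levels of the other genes that took no part in the comparison of high with low, although their Upk3b CPM was ranked by the same rule. In them, the slope of each gene on log2 Upk3b CPM of the library total was tested, in units of log2 per doubling of Upk3b. In the Ddx3y-negative stratum 3.89% of genes rose and 4.49% fell along Upk3b, and in the Ddx3y-positive stratum 0.996% rose and 1.67% fell. Over both directions these were 8.39% and 2.66% of genes, against 2.16% and 0.316% with limma on log2 CPM. Of the 11 mesothelial surface genes, all had positive slopes and 10 passed in each stratum, with median slopes of 0.72 and 0.74. Bnc1 had slopes of 0.83 (adjusted p = 1.3e-09) and 0.73 (adjusted p = 3.9e-08), Msln 0.66 (adjusted p = 1.9e-04) and 0.91 (adjusted p = 8.8e-08), and Wt1 0.58 (adjusted p = 9.9e-04) and 0.42 (adjusted p = 0.018). Tmem151a had 0.86 (adjusted p = 4.8e-11) and 0.97 (adjusted p = 1.4e-12). Of the surface genes Slpi missed the threshold, at 0.10 (adjusted p = 0.90) and 0.36 (adjusted p = 0.60). Of the epithelial genes 4 rose and 1 fell in the Ddx3y-negative stratum and 2 rose in the other. Of the factors 3 rose in each, while Gata4, with group medians under 1 CPM, fell in the Ddx3y-negative stratum at -3.97 (adjusted p = 3.2e-05). The summed level of ovary genes had a median of 3.995 CPM in the Ddx3y-negative middle libraries and reached 1561 CPM in 1 of them. The part of that library in the Gata4 slope was not tested. None of the 12 retinoid genes rose in either stratum, and 2 fell in the Ddx3y-negative one. The slopes had the sign of the difference between high and low groups for 78.7% and 89.4% of the genes higher in both strata and for 82.7% and 88.7% of those lower in both, while 46.2% and 48.8% of all genes had positive slopes.

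**Figure D4:**
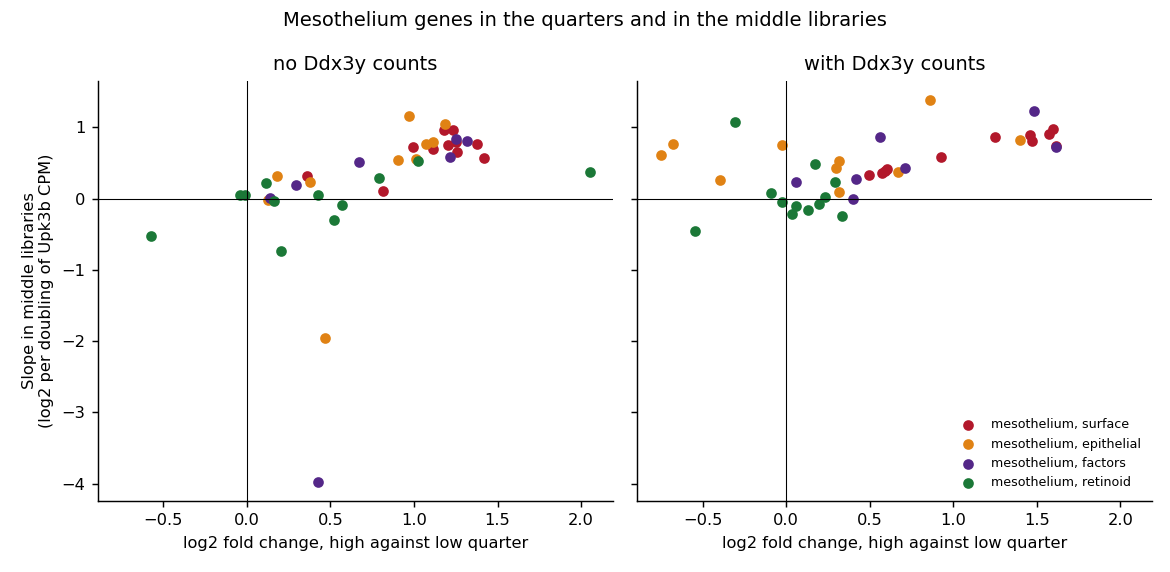
Each point is 1 of the 40 mesothelium genes tested, placed by its log2 fold change between high and low libraries (horizontal) and by its slope on log2 Upk3b CPM in the middle libraries (vertical). The surface genes had positive values on both axes in both strata. The lowest point, at a slope of -3.97, is Gata4 in the Ddx3y-negative stratum, where 1 middle library held 1561 CPM of ovary genes.

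Genes of adipocyte progenitors were higher in the Ddx3y-negative stratum, 14 of 16 with none lower (median 0.36), while in the Ddx3y-positive stratum 2 were higher and 3 lower (median -0.04). For Ddx3y-negative libraries 10 were higher with groups ranked by TMM-scaled Upk3b, and the median was 0.13 with the mitochondrial share as a covariate. For 13 of the 16 the interaction passed with a negative sign, beside 21.7% of all genes with a negative and 22.1% with a positive one. Dpp4, a peptidase gene of early progenitors in the connective sheath, was higher in both. It had 31.2, 60.6 and 98.9 CPM in Ddx3y-negative high and 18.3, 29.7 and 47.9 CPM in low libraries, and 31.6, 49.99 and 89.2 CPM and 13.4, 28.03 and 146.1 CPM in the Ddx3y-positive stratum. Its log2 fold changes were 0.98 ± 0.063 (SE, adjusted p = 7.7e-27) and 0.70 ± 0.082 (SE, adjusted p = 8.5e-12), and it rose in the middle libraries at 0.49 (adjusted p = 0.0037) and 0.52 (adjusted p = 6.1e-04). Of collagens and other fibrillar matrix genes, 7 of 18 were higher and none lower in the Ddx3y-negative stratum (median 0.24) and 1 higher and 15 lower in the Ddx3y-positive stratum (median -0.38). Ranked by TMM-scaled Upk3b, 3 were higher in the Ddx3y-negative stratum (median 0.07), and with the mitochondrial share as a covariate the median there was -0.32. Col1a1, the main collagen chain of fibrous tissue, had medians of 671.6 against 439.5 CPM and 527.1 against 740.02 CPM, at 0.50 ± 0.14 (SE, adjusted p = 0.0015) and -0.49 ± 0.14 (SE, adjusted p = 0.0050). With groups ranked by TMM-scaled Upk3b it had 0.29 (adjusted p = 0.069) in the Ddx3y-negative stratum.

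Signalling genes showed the same split in part. Of 16 Wnt pathway genes 12 were higher and none lower in the Ddx3y-negative stratum (median 0.66, or 0.36 with 7 higher when groups were ranked by TMM-scaled Upk3b), and 3 were higher and 1 lower in the Ddx3y-positive stratum (median 0.06). Lgr5, a receptor for R-spondins, had medians of 1.63 against 0.557 CPM in the Ddx3y-negative stratum and passed at 1.47 ± 0.17 (SE, adjusted p = 2.9e-12), with 0.61 ± 0.36 (SE, adjusted p = 0.19) in the other. Of 16 BMP and TGF-beta genes, 11 were higher in the Ddx3y-negative and 7 higher and 1 lower in the Ddx3y-positive stratum. Ranked by TMM-scaled Upk3b, 7 were higher and 1 lower in the Ddx3y-negative stratum, with a median of 0.19 in place of 0.48. Bmp4, a ligand that commits progenitors to the adipocyte lineage, was higher in both at 0.91 ± 0.074 (SE, adjusted p = 2.1e-20) and 0.65 ± 0.077 (SE, adjusted p = 1.8e-11), with medians of 13.4 against 7.10 CPM and 13.9 against 8.96 CPM. Chrdl1, an extracellular BMP antagonist, was higher in both at 0.66 and 0.53 (adjusted p = 5.7e-08 and 2.6e-05). Complement genes were higher in 11 of 14 cases in the Ddx3y-negative stratum (median 0.56) and in 5 cases, with 2 lower, in the Ddx3y-positive stratum (median 0.05), where 6 were lower with groups ranked by TMM-scaled Upk3b. C2, a protease of the classical pathway, led them with 18.4, 102.6 and 167.9 CPM in Ddx3y-negative high and 17.7, 49.3 and 95.5 CPM in low libraries, at 1.10 ± 0.084 (SE, adjusted p = 7.1e-22), and 0.71 ± 0.083 (SE, adjusted p = 1.1e-11) in the Ddx3y-positive stratum.

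Among immune cells, B cell genes were higher in high libraries of both strata, 7 of 10 in the Ddx3y-negative and 9 of 10 in the Ddx3y-positive stratum, with medians of 0.69 and 0.79. Ms4a1, which encodes CD20, had 0.514, 5.29 and 25.6 CPM in Ddx3y-positive high and 0.367, 2.48 and 22.5 CPM in low libraries, at 1.07 ± 0.22 (SE, adjusted p = 7.8e-05), and passed in the other stratum at 0.67 ± 0.18 (SE, adjusted p = 8.7e-04), though not with the mitochondrial share as a covariate (0.36, adjusted p = 0.21). Cxcl13, the chemokine that draws B cells into the lymphoid clusters of serous membranes, had medians of 4.14 against 2.87 CPM and 8.66 against 3.03 CPM and log2 fold changes of 0.56 ± 0.17 (SE, adjusted p = 0.0032) and 1.47 ± 0.28 (SE, adjusted p = 2.6e-05). Without the libraries rich in other tissues Cxcl13 had 0.27 (adjusted p = 0.16) in the Ddx3y-negative stratum. Mast cell genes were higher in 7 of 8 cases, with 1 lower, in the Ddx3y-negative stratum and in 5 of 8 in the Ddx3y-positive stratum (medians 0.89 and 0.45). Ranked by TMM-scaled Upk3b, 1 of 8 was higher in the Ddx3y-positive stratum (median 0.30). Mcpt4, a chymase gene of connective tissue mast cells, had medians of 10.1 against 4.71 CPM and 5.81 against 4.07 CPM, at 1.04 ± 0.17 (SE, adjusted p = 6.7e-08) and 0.47 ± 0.18 (SE, adjusted p = 0.038), and with groups ranked by TMM-scaled Upk3b 0.28 (adjusted p = 0.22) in the latter. Interferon-stimulated genes were higher in 11 of 12 and 5 of 12 cases, with none lower, at medians of 0.43 and 0.28.

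Macrophage genes differed by stratum. In the Ddx3y-negative stratum 7 of 12 were higher and none lower (median 0.42), and in the Ddx3y-positive stratum 2 were higher and 6 lower (median -0.32), or 9 lower with groups ranked by TMM-scaled Upk3b. With the mitochondrial share as a covariate the medians were -0.06 and -0.43. Lyz2, the lysozyme of myeloid cells, had 184.4, 337.5 and 830.00 CPM in Ddx3y-negative high and 100.7, 199.9 and 1055 CPM in low libraries, and 181.7, 392.1 and 2650.3 CPM and 97.7, 577.4 and 1637 CPM in the Ddx3y-positive stratum. It passed in the first stratum at 0.59 ± 0.12 (SE, adjusted p = 1.1e-05), but not with the covariate (0.05, adjusted p = 0.73), and its interaction was -0.94 ± 0.19 (SE, adjusted p = 2.1e-05). Adgre1, which encodes the F4/80 antigen, was higher in the first at 0.29 ± 0.13 (SE, adjusted p = 0.047) and lower in the second at -0.45 ± 0.16 (SE, adjusted p = 0.019), and ranked by TMM-scaled Upk3b it had 0.10 (adjusted p = 0.54) in the first. Timd4, a receptor of resident macrophages of serous cavities and tissues, was higher in both at 0.73 ± 0.095 (SE, adjusted p = 1.0e-10) and 0.49 ± 0.099 (SE, adjusted p = 5.9e-05), with medians of 7.02 against 4.21 CPM and 7.04 against 5.14 CPM. Gpnmb, a gene of lipid-laden macrophages, was lower in Ddx3y-positive high libraries, at medians of 74.5 against 178.3 CPM and -1.10 ± 0.30 (SE, adjusted p = 0.0030), and had -0.18 ± 0.33 (SE, adjusted p = 0.67) in the Ddx3y-negative stratum.

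**Figure D5:**
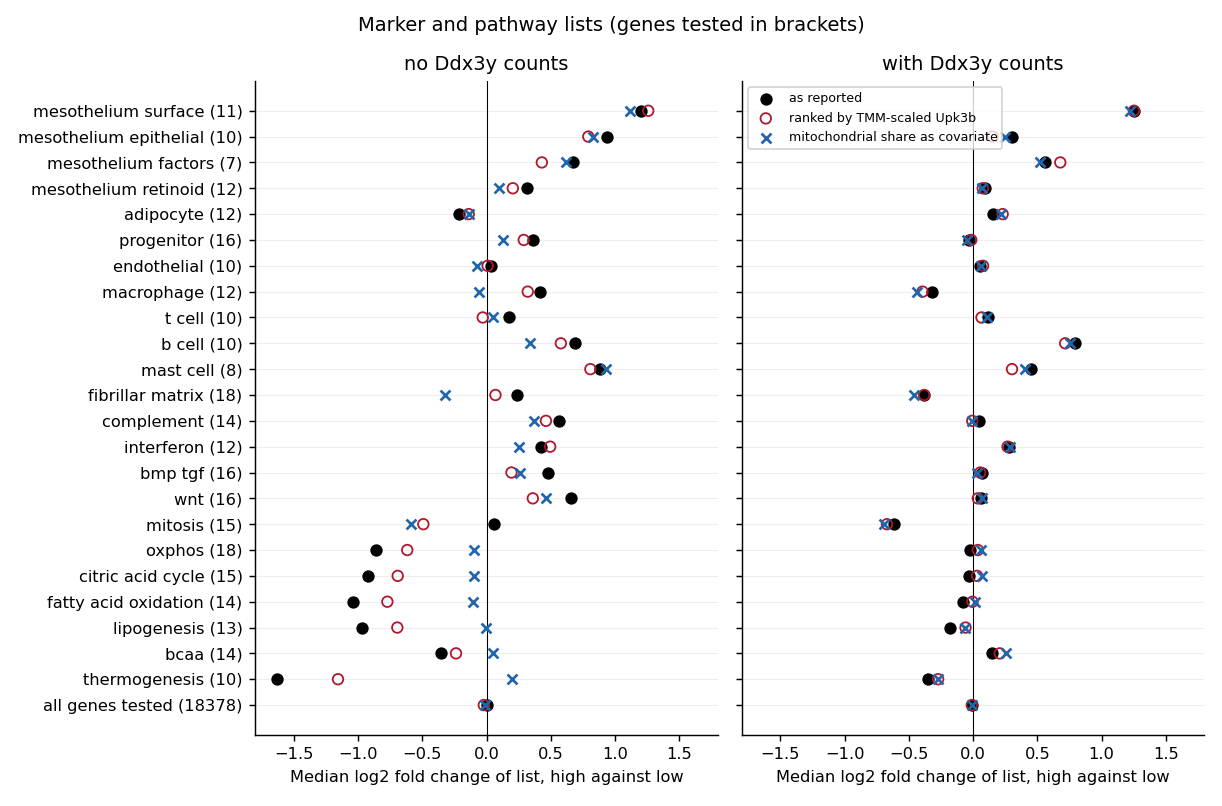
Each row is a list of genes drawn from general knowledge, with the number tested in brackets. The lists were chosen with earlier results of these data known. The horizontal axis is the median log2 fold change of the genes of a list between high and low libraries. Black points are the values reported, red circles those with groups ranked by TMM-scaled Upk3b, and blue crosses those with the log2 mitochondrial share as a covariate. The surface list stayed between 1.12 and 1.26 in all 3, whereas thermogenesis in the Ddx3y-negative stratum went from -1.63 to 0.20 with the covariate.

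Mitochondrial metabolism was lower in Ddx3y-negative high libraries and passed the test for few genes in Ddx3y-positive ones. All 18 genes of oxidative phosphorylation, all 15 of the citric acid cycle, all 14 of fatty acid oxidation and 12 of 13 of fatty acid synthesis were lower in the Ddx3y-negative stratum, at medians of -0.86, -0.93, -1.04 and -0.97. In the Ddx3y-positive stratum 0, 2, 4 and 4 of them were lower and none higher. With groups ranked by TMM-scaled Upk3b, 0, 0, 1 and 2 were lower there and 0, 0, 2 and 1 higher. Hadhb (ENSMUSG00000059447, chromosome 5, 30155248 to 30184593), the beta subunit of the trifunctional enzyme of fatty acid oxidation, had 235.3, 533.1 and 1928 CPM in Ddx3y-negative high and 367.3, 1467 and 3648 CPM in low libraries, and 212.1, 315.1 and 523.8 CPM and 198.9, 328.2 and 612.1 CPM in the Ddx3y-positive stratum. The log2 fold changes were -1.28 ± 0.14 (SE, adjusted p = 5.8e-13) and -0.07 ± 0.054 (SE, adjusted p = 0.34), an interaction of 1.21 ± 0.15 (SE, adjusted p = 1.6e-11). Uqcrc1, a core subunit of respiratory complex III, had medians of 206.3 against 450.1 CPM in the Ddx3y-negative stratum and 151.8 against 142.7 CPM in the other. The interaction was positive for all 18, 15 and 14 genes of the first 3 lists.

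The mitochondrial share of the libraries was itself lower in Ddx3y-negative high libraries. With that share as a covariate the Ddx3y-negative medians were -0.09 for oxidative phosphorylation, -0.10 for the citric acid cycle and -0.11 for fatty acid oxidation. The median of the mesothelial surface genes was 1.12 in that fit. The share is itself a readout of mitochondrial RNA and differed between the groups, so the fit cannot separate it from the difference of these lists. A cause was not tested. Thermogenic genes were lower in 9 of 10 cases in the Ddx3y-negative stratum (median -1.63, or 0.20 with the covariate), and in the Ddx3y-positive stratum 4 were lower and 1 higher. Ucp1, the uncoupling protein of brown and beige fat, had 0.843, 128.6 and 2115 CPM in Ddx3y-negative high and 5.47, 914.8 and 3711 CPM in low libraries. Its Ddx3y-positive medians were 1.69 against 3.93 CPM. The log2 fold changes were -1.98 ± 0.37 (SE, adjusted p = 2.7e-06) and -0.80 ± 0.34 (SE, adjusted p = 0.059). Cpt1b, the muscle and brown fat form of the enzyme that admits fatty acids to mitochondria, was lower in both at -1.88 ± 0.26 (SE, adjusted p = 1.2e-09) and -0.76 ± 0.13 (SE, adjusted p = 4.1e-06), as was Elovl6, a fatty acid elongase gene, at -1.72 ± 0.24 (SE, adjusted p = 7.9e-10) and -0.90 ± 0.16 (SE, adjusted p = 6.8e-06). Fasn, the fatty acid synthase, was lower in the Ddx3y-negative stratum at -1.02 ± 0.18 (SE, adjusted p = 9.8e-07) and had -0.22 ± 0.11 (SE, adjusted p = 0.12) in the other.

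General adipocyte genes changed less. Of 12, 1 was higher and 7 lower in the Ddx3y-negative stratum, at a median of -0.22 that became 0.04 with library totals, and 6 were higher and 2 lower in the Ddx3y-positive stratum (median 0.15). Adipoq had medians of 2370.1 against 2073 CPM and 2139 against 1450.4 CPM and log2 fold changes of 0.16 ± 0.060 (SE, adjusted p = 0.015) and 0.45 ± 0.098 (SE, adjusted p = 2.0e-04). Acsl1, which activates long-chain fatty acids, was lower in both at -0.52 ± 0.065 (SE, adjusted p = 2.8e-11) and -0.36 ± 0.081 (SE, adjusted p = 2.7e-04). Genes of mitosis were lower in all 15 cases in Ddx3y-positive high libraries (median -0.62). None passed in the Ddx3y-negative stratum, where the median was 0.06. That median became -0.49, with 12 of 15 lower, when groups were ranked by TMM-scaled Upk3b, and 0.71 when they were ranked by Msln. Mki67, the antigen of cycling cells, had 5.62, 14.7 and 71.9 CPM in Ddx3y-positive high and 2.72, 28.9 and 97.8 CPM in low libraries, at -0.71 ± 0.17 (SE, adjusted p = 7.4e-04). Ddx3y-negative libraries had 2.32, 10.1 and 72.9 CPM and 2.77, 9.71 and 57.7 CPM, at -0.06 ± 0.19 (SE, adjusted p = 0.80).

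Markers of neighbouring tissues were read beside these results. Of 6 genes of bladder epithelium (Upk1a, Upk2, Upk3a, Krt5, Krt20 and Grhl3), 2 passed the filter, and their summed level had medians of 0.475 against 0.411 CPM and 0.494 against 0.537 CPM. Skeletal muscle genes were higher in 7 of 8 cases in the Ddx3y-negative stratum (median 1.46), and -1.09 without the libraries rich in other tissues, where the summed level had reached 6613 CPM in 1 high library. Ranked by TMM-scaled Upk3b, 3 of 8 were higher. Of 10 genes of seminal vesicle and prostate, 2 were tested, and both were lower in Ddx3y-positive high libraries (median -4.08). Their summed level had medians of 0.605 against 0.564 CPM and reached 228836 CPM in 1 low library and 6782 CPM in 1 high one. Without the libraries rich in other tissues the median was 0.13 and neither gene was called. Liver genes were higher in 1 of 10 and 5 of 10 cases, at medians of 0.58 and 0.97. Genes of endothelium had medians of 0.03 and 0.05, with 2 higher and 2 lower in the Ddx3y-negative stratum and none called in the other. Lymphatic genes were higher in 5 of 6 cases in the Ddx3y-negative stratum (median 0.77, or 0.26 with 1 higher when ranked by TMM-scaled Upk3b) and none passed in the Ddx3y-positive one. The part of these tissues in the results above was not tested beyond the values given without the libraries rich in other tissues.

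The genes with the largest interactions closed the comparison of the strata. Of those with a higher log2 fold change in the Ddx3y-positive stratum, Ntrk3, the receptor of neurotrophin 3, had 1.87, 11.4 and 92.2 CPM in Ddx3y-negative high and 1.62, 62.9 and 177.7 CPM in low libraries, and medians of 9.28 against 8.38 CPM in the Ddx3y-positive stratum. Its interaction was 2.10 ± 0.27 (SE, adjusted p = 4.7e-11). Acot11, a thioesterase gene of brown fat, had medians of 19.3 against 171.8 CPM and 5.42 against 7.85 CPM and an interaction of 2.03 ± 0.36 (SE, adjusted p = 5.9e-07). Lgr6, a receptor for R-spondins, had medians of 3.41 against 14.2 CPM and 0.182 against 0.206 CPM, at 2.18 ± 0.44 (SE, adjusted p = 1.6e-05). With the mitochondrial share as a covariate the Ddx3y-negative log2 fold changes of Ntrk3, Acot11 and Lgr6 went from -1.89, -2.22 and -1.66 to 0.06, 0.26 and 0.42 and did not pass (adjusted p = 0.82, 0.30 and 0.35), and that of Mfsd2a went from -1.29 to 0.56 (adjusted p = 0.25). Mup10 and Mup7 belong to the major urinary proteins, whose near-identical copies divide reads between them, and Mfsd2a carries lipids that contain docosahexaenoic acid. Of those with a lower log2 fold change in the Ddx3y-positive stratum, Lcn2, the iron-carrier-binding lipocalin 2, had 2.21, 7.68 and 95.2 CPM in Ddx3y-positive high and 1.92, 32.9 and 1235 CPM in low libraries and medians of 1.22 against 1.23 CPM in the other stratum, at -2.17 ± 0.40 (SE, adjusted p = 1.7e-06). Cldn2, a claudin of leaky epithelia, had medians of 0.530 against 16.8 CPM in the Ddx3y-positive stratum and 0.0653 against 0.0193 CPM in the other, at -2.49 ± 0.85 (SE, adjusted p = 0.011). Its Ddx3y-positive log2 fold change of -1.36 (adjusted p = 0.018) was -1.18 without the libraries rich in other tissues (adjusted p = 0.051). With the summed oviduct and uterus list as a covariate it was -0.47 (adjusted p = 0.26). The interaction of Cldn2 with limma on log2 CPM was -2.51 (adjusted p = 0.0056). Single libraries weighed on other interactions. A single Ddx3y-positive low library held 293.7 CPM of Col6a4, a collagen VI chain gene, where the next held 3.67 CPM. A single Ddx3y-negative high library held 1956 CPM of the muscle calcium pump gene Atp2a1, where the next held 109.02 CPM. Slc7a5, an amino acid transporter gene, had 497.1 and 340.2 CPM in 2 Ddx3y-positive low libraries and at most 18.02 CPM in the others. Without the libraries rich in other tissues the log2 fold changes of these 3 genes, -2.01, 2.01 and -1.53 in those strata, were 0.47, -1.50 and -0.36 (adjusted p = 0.046, 0.017 and 0.0057). Those of Col6a4 and Atp2a1 thus changed sign, whereas Slc7a5 was lower in both fits. Ighg1, an antibody heavy chain gene, had medians of 0.871 against 0.240 CPM and 1.56 against 0.824 CPM.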

How the data were processed

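Gonadal fat of Diversity Outbred mice was profiled by RNA-seq, with 1 library per mouse. Per the methods, the authors aligned both ends of each read pair as single ends to a transcriptome of the founder strains and estimated expected counts per gene with EMASE under GBRS (GRCm38 per the labels, versions not given in the sources used here), after removal of transcripts with little signal. Of the deposited expected counts, 66.8% were whole within 1e-06, and library totals were 35.3 M to 137.8 M (M, 1000000 counts). The authors also deposited log2 values from the variance stabilizing transformation of DESeq2, used here only in an alternative, and gene positions. Because reads were shared out by model, near-identical genes are uncertain, and the use of strand in counting is not given in the sources used here.

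Libraries were split by the presence of Ddx3y counts, and the highest and lowest 25% by Upk3b CPM were compared within each stratum. Counts were rounded, and genes with at least 10 counts in at least 50% of libraries were kept, which left 18378 of 23180 genes after Upk3b and Ddx3y were set aside. The quasi-likelihood test of edgeR 4.0.16 (R 4.3.3) with TMM factors over all libraries was fitted per stratum, with an interaction over both, and Benjamini-Hochberg adjustment over all genes tested at 0.05. In the middle libraries the covariate was log2 Upk3b CPM of the library total. Standard errors were derived from the fold change and the F statistic. Library properties were compared by permutation tests (numpy 2.4.6) with 12 comparisons adjusted together. The fits were tested on simulated data. Alternatives used DESeq2 1.42.0 and limma 3.58.1, other scalings, filters, cuts and covariates.

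The genes named are those of the mesothelium lists, the 12 highest and 12 lowest called in both strata that averaged 5 CPM or more, the 6 highest and 6 lowest interactions, the 10 genes closest to Upk3b that averaged 1 CPM or more, and a few members of other lists with the largest differences. Predicted genes were passed over. A few genes that these rules name are not reported here. Members, lists and tests were chosen with earlier results of these data known. Promoters came from RefSeq (GRCm38.p6). The p-values treat the mice of a group as independent, and kinship among them was not used. The groups were made from a measured value, so a difference between them is an association with Upk3b and not an effect.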

Additional observations from a re-analysis of the deposited data

Results flagged for a closer look

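The same contrast of high with low libraries gave different values in the strata for many genes. By the interaction term of edgeR, 8039 of 18378 genes (43.7%) differed between the strata, and 1045 genes were called in both strata in opposite directions, with 3.31% of genes tested higher in Ddx3y-negative and lower in Ddx3y-positive high libraries and 2.38% the other way. The strata hold different mice, and the groups were cut at different Upk3b levels in each. The interaction is the Ddx3y-positive minus the Ddx3y-negative log2 fold change.

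Among genes that averaged 5 CPM or more the highest interactions were those of Mup10 at 2.69 (adjusted p = 8.2e-04), Mup7 at 2.56 (adjusted p = 0.0015), Lgr6 at 2.18 (adjusted p = 1.6e-05), Mfsd2a at 2.10 (adjusted p = 0.0070), Ntrk3 at 2.10 (adjusted p = 4.7e-11) and Acot11 at 2.03 (adjusted p = 5.9e-07). With groups ranked by TMM-scaled Upk3b, Mfsd2a had 0.88 (adjusted p = 0.32). The lowest were those of Col6a4 at -2.67 (adjusted p = 8.5e-05), Ighg1 at -2.53 (adjusted p = 9.6e-04), Cldn2 at -2.49 (adjusted p = 0.011), Atp2a1 at -2.24 (adjusted p = 0.018), Lcn2 at -2.17 (adjusted p = 1.7e-06) and Slc7a5 at -1.93 (adjusted p = 3.8e-09). Mup10 and Mup7 are near-identical copies whose separate counts are uncertain. Single libraries weighed on Col6a4, Atp2a1 and Slc7a5, as given above. With limma on log2 CPM the interaction of Slc7a5 was -0.95 and passed (adjusted p = 2.5e-05). Those of Col6a4 (-1.11, adjusted p = 0.053), Ighg1 (-1.55, adjusted p = 0.081), Atp2a1 (-0.19, adjusted p = 0.82) and Mfsd2a (1.64, adjusted p = 0.057) did not pass with limma.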

How the results depend on the processing

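The number of genes called between high and low libraries was 9644 in the Ddx3y-negative and 6083 in the Ddx3y-positive stratum. Under 20 alternatives it lay within 1.5 times these numbers, from 7105 to 13381 and from 5015 to 7327. Only genes that averaged 10 CPM or more gave 5996 and 3558, since fewer genes were then tested. Genes called in the same direction in both strata went from 2348 to between 1573 and 3024, and interactions from 8039 to between 6411 and 11400. Slopes in the middle libraries depended most on the settings. In the Ddx3y-negative stratum 8.39% of genes were called, 2.16% with limma on log2 CPM, 3.22% with blocks of mouse and library number and 5.17% with capped counts, and in the Ddx3y-positive stratum 2.66%, 0.316%, 0.463% and 0.539%, and the cause was not tested. Surface genes were higher in 10 or 11 of 11 cases under all alternatives run in both strata. Epithelial genes higher in the Ddx3y-positive stratum, 5 of 10, were 3 with groups ranked by Msln and 8 with the oviduct and uterus covariate. Retinoid genes higher in the Ddx3y-negative stratum, 7 of 12, were 11 with library totals, 4 with groups ranked by TMM-scaled Upk3b and 4 with the mitochondrial covariate. The covariates of mitochondrial share and of the oviduct and uterus list were chosen after the data were seen.

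Of 4546 values of named genes under alternatives, 4192 kept their direction and side of the threshold or stayed below it, 2.24% passed newly, 5.02% no longer passed and 24 reversed. The mitochondrial covariate took 30 of the calls in the Ddx3y-negative stratum below the threshold. The reversed log2 fold changes in the Ddx3y-negative stratum were those of Dsp (-1.07) and Gata4 (-2.14) with TMM-scaled ranks, Gata4 (-1.20) with the third at each end, Cdh1 (-0.82), Itgad (2.06), Gpnmb (1.10), Mki67 (0.72), Lep (1.12) and Dhrs3 (0.14) with groups ranked by Msln, Rbp4 (0.21) and Dhrs3 (0.23) with library totals, Cdh1 (-0.69) and Lcn2 (-0.54) with the oviduct and uterus covariate, Adgre1 (-0.17) with itself as covariate, and Atp2a1 (-1.50) without libraries rich in other tissues. In the Ddx3y-positive stratum they were Krt8 (0.63), Krt18 (0.49) and Ceacam10 (3.16) with the oviduct and uterus covariate, Ceacam10 with the mitochondrial covariate (2.77) and without the shallowest libraries (2.22), Col6a4 with DESeq2 (0.51), with the tenth at each end (0.74) and without libraries rich in other tissues (0.47), and Ighg1 with the tenth at each end (2.30). The cause was not tested. No paired analysis was possible because the labels put all libraries in 1 group of separate mice. Depth did not limit Upk3b, with at least 1085 counts in a library, but genes under 1 CPM such as Gata4 and Stra6 rest on fewer counts.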

Other observations

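Other groups of genes gave the following counts between high and low libraries, to be read against 25% higher and 27.5% lower over all genes in the Ddx3y-negative stratum and 14.2% and 18.9% in the Ddx3y-positive stratum. Enzymes of branched-chain amino acid breakdown, which run in adipocyte mitochondria, were lower in 12 of 14 cases with none higher in the Ddx3y-negative stratum (median -0.36, or -0.08 with library totals), and higher in 4 with none lower in the Ddx3y-positive stratum (median 0.14). Proteins of the cytosolic ribosome were higher in 13 of 15 cases in the first (median 0.23) and lower in 1 in the second (median 0.02). T cell genes were higher in 2 of 10 cases in the first, and 1 was lower in the second. Genes of antigen presentation by MHC class II passed in 0 and 1 of 7 cases at adjusted p below 0.05 by edgeR. Chemokine genes were higher in 6 of 12 cases in the first, and in the second 3 were higher and 5 lower.

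Clock genes were lower in 5 and higher in 1 of 11 cases in the Ddx3y-negative stratum, and higher in 2 and lower in 1 in the other. Immediate early genes, which respond to handling of tissue among other stimuli, were lower in 3 and 4 of 10 cases with none higher. Genes that mark the position of a fat depot were higher in 3 and lower in 1 of 10 cases in the first stratum and higher in 1 in the second. Smooth muscle genes were higher in 4 and lower in 2 of 9 cases in the first and lower in 1 in the second. Ranked by TMM-scaled Upk3b, 0 smooth muscle genes were higher and 2 lower in the first by edgeR, with a median of 0.11 in place of 0.65. The same ranking gave 0 T cell genes higher, 3 clock genes lower, and 1 depot gene higher and 2 lower in the first, and 12 branched-chain amino acid genes higher, 3 MHC class II genes lower and 4 ribosome genes lower in the second. Ovary genes were higher in 4 of 4 cases tested in the Ddx3y-negative stratum, at a median of 0.70 that became -3.42 with groups ranked by TMM-scaled Upk3b. Adam28, a metalloprotease gene of the epididymis, had a log2 fold change of -6.45 in the Ddx3y-positive stratum that rested on a single low library with 1079.8 CPM, where the next held 6.72 CPM.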
